A study of Mus musculus with 15 samples.

Results

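The subunits of the mitochondrial respiratory chain that are encoded in the nucleus were followed, complex by complex, in RNA sequenced from mouse kidneys. Members were taken by gene symbol, as symbols beginning with Nduf followed by the letter a, b, c, s or v and a digit, with Uqcr, with Cox and a digit of 4 to 8, or with Atp5, together with Sdha, Sdhb, Sdhc, Sdhd and Cyc1. Of 23866 rows with a gene symbol 85 matched, and 82 of these had at least 1 CPM (counts scaled to a common library size) in 3 libraries. The 3 that did not were Cox4i2, Cox7b2 and Cox8c, paralogs of complex IV subunits. The 82 members comprised 37 genes of complex I, 4 of complex II, 9 of complex III, 15 of complex IV and 17 of complex V. The series holds kidneys of male C57BL/6 mice and was made as a model of kidney injury in alcoholic liver fibrosis, and 14 libraries in 4 groups were analysed here. The CCl4+EtOH group (3 mice) received intraperitoneal carbon tetrachloride (CCl4), a liver toxin, for 6 weeks and then ethanol for 4 weeks. The EtOH group (4 mice) received intraperitoneal olive oil for 6 weeks and then ethanol for 4 weeks. The CCl4 group (4 mice) received CCl4 for 6 weeks, and 2 of its mice had a reduced dose for a further 4 weeks. The olive oil group (3 mice) received olive oil for 6 weeks. Groups given ethanol were therefore 4 weeks longer under treatment than the olive oil group. No olive oil mice had the added weeks, so in EtOH against olive oil kidneys ethanol and time cannot be told apart. CCl4+EtOH and olive oil kidneys differ by the same 4 weeks, so there too treatment and time go together. The 2 CCl4 mice with the further 4 weeks had the added time without ethanol, and their values are given with those of the other libraries. The titles of the CCl4+EtOH mice name CCl4 again, so whether CCl4 went on beside the ethanol is not clear from the labels. Ages were not given in the sources used here.

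The respiratory chain sits in the inner mitochondrial membrane. Complex I takes electrons from NADH and complex II from succinate, ubiquinone carries them to complex III, cytochrome c carries them to complex IV, and complex IV passes them to oxygen. Complexes I, III and IV pump protons, and complex V, the ATP synthase, uses the proton gradient to make ATP. Tubule cells of the kidney, those of the proximal tubule above all, are rich in mitochondria because they reabsorb salt and solutes by active transport. Some subunits of complexes I, III, IV and V are encoded in mitochondrial DNA. They were not analysed here. A symbol does not always name a subunit of its complex. Ndufa4 is now counted with complex IV, its paralog Ndufa4l2 is known as a hypoxia-induced protein, and Cox7a2l promotes the joining of complexes III and IV. Atp5s and Atp5sl, which RefSeq names Dmac2l and Dmac2, are not subunits of complex V. All were kept in the complex that their symbol names.

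Libraries held about 16356500 to 23545300 counts. Every member passed the filter on low counts and was tested with all 16105 genes that passed it. Markers of the proximal tubule, loop of Henle and collecting system were present in every library, as the kidney label says. EtOH replicates 1 to 3 carried adrenal cortex transcripts (5 markers, summed level 700.1 to 1104 CPM, against 4.89 to 25.9 CPM in the other 11 libraries), and comparisons with the EtOH group are given without them where that matters. CCl4+EtOH replicate 3 lay closer to the other groups than replicates 1 and 2 did, and results are given without it.

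Transcription of respiratory chain genes in mammals is known to involve the factors NRF1, the ETS factor GABP, YY1 and the estrogen-related receptors. Promoter windows from 250 bases before to 50 bases after the RefSeq start (build GRCm38.p6) were found for 68 of the 82 members and were searched on both strands for GCGCANGCG (NRF1), CCGGAAG (ETS), AAGATGGCG (YY1) and TCAAGGTCA (estrogen-related receptor). A gene with several windows was counted as a match where any of them matched. NRF1 letters occurred in 29.4% of the members with a window. They occurred in 13.1% of the other 11565 tested genes with a window and in 7.03% of all 27025 genes with a window. For ETS the shares were 23.5%, 17.2% and 9.93%, for YY1 11.8%, 2.98% and 1.64%, and for the receptor 2.94%, 0.35% and 0.47%. Any of these motifs occurred in 52.9% of the members with a window, in 29.4% of the other tested genes and in 16.9% of all genes with a window. Some windows are printed in the direction of transcription, with motif matches in capitals: the complex I gene with the largest fall (Ndufa10, chr1:92473709-92474008, minus strand), a complex III and a complex IV gene that fell and whose windows hold NRF1 letters (Uqcrc1, chr9:108936398-108936697, plus strand, and Cox6a1, chr5:115348909-115349208, minus strand), and the only member that was called higher (Cox6b2, chr7:4753045-4753344, minus strand).
Ndufa10: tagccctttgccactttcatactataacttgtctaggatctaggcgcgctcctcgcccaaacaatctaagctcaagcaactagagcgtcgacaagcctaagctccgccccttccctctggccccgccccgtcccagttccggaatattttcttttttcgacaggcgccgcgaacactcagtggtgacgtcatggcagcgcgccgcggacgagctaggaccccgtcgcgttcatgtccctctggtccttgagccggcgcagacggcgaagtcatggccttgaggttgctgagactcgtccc
Uqcrc1: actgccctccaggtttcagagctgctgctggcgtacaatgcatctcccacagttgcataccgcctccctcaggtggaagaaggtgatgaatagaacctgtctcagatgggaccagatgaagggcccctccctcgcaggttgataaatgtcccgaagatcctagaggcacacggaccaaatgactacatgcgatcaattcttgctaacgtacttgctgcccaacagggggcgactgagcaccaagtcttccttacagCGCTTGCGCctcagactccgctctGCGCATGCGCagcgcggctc
Cox6a1: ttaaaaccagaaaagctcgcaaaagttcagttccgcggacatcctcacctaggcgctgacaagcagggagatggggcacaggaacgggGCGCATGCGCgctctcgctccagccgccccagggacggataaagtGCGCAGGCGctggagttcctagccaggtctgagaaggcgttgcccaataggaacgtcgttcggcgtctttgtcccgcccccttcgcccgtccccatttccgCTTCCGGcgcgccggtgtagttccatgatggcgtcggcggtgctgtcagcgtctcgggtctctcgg
Cox6b2: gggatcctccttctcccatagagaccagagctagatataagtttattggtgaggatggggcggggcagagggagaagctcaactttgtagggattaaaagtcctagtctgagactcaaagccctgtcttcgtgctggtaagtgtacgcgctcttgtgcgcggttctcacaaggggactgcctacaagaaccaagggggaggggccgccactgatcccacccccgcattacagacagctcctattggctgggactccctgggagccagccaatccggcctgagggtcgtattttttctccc
In the Uqcrc1 window the NRF1 letters start at bases 7, 31 and 32 after the start site, and in the Cox6a1 window at 162, 161 and 117 bases before it, with ETS letters 16 bases before it. Matches that start 1 base apart lie on opposite strands of a palindromic run and share their bases. The Ndufa10 and Cox6b2 windows hold none of the searched letters. Of the windows not printed, that of Atp5b holds none of them either, and that of Sdhb holds ETS letters only. By complex, 8 of 32 members with a window held NRF1 letters in I, 2 of 3 in II and 2 of 5 in III. In complex IV it was 1 of 12, which is Cox6a1, and in complex V 7 of 16.

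In CCl4+EtOH kidneys the respiratory chain transcripts were lower in all 5 complexes than in olive oil kidneys. Of the 82 members 73 fell and 1, Cox6b2, rose at an adjusted p under 0.05 in edgeR's quasi-likelihood test, against 16.6% of all tested genes that fell and 18.9% that rose. The median log2 change over the members was -0.49 (a change of -28.6%), against a median of 0.02 over all tested genes. The middle of the members was narrow, with quartiles at -0.62 and -0.40. By complex, 33 of 37 members of complex I fell (median -0.49), 4 of 4 of complex II (-0.71), 9 of 9 of complex III (-0.55), 10 of 15 of complex IV (-0.45) and 17 of 17 of complex V (-0.53). Counts of members were taken as a share of the library too: they made up 1.67% ± 0.30 of all counts in CCl4+EtOH kidneys (SD, n = 3), 2.07% ± 0.03 in EtOH kidneys (n = 4), 2.17% ± 0.04 in CCl4 kidneys (n = 4) and 2.15% ± 0.07 in olive oil kidneys (n = 3). With only the 2 groups compared in the fit, 27 members were called, all of them lower, and 3276 of all genes, against 5706 with all 4 groups in the fit. Without CCl4+EtOH replicate 1, 49 members and 3904 genes were called, and without replicate 3, 76 members and 7417 genes. In bulk tissue, fewer cells of a type and less RNA per cell cannot be told apart.

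**Figure D1:**
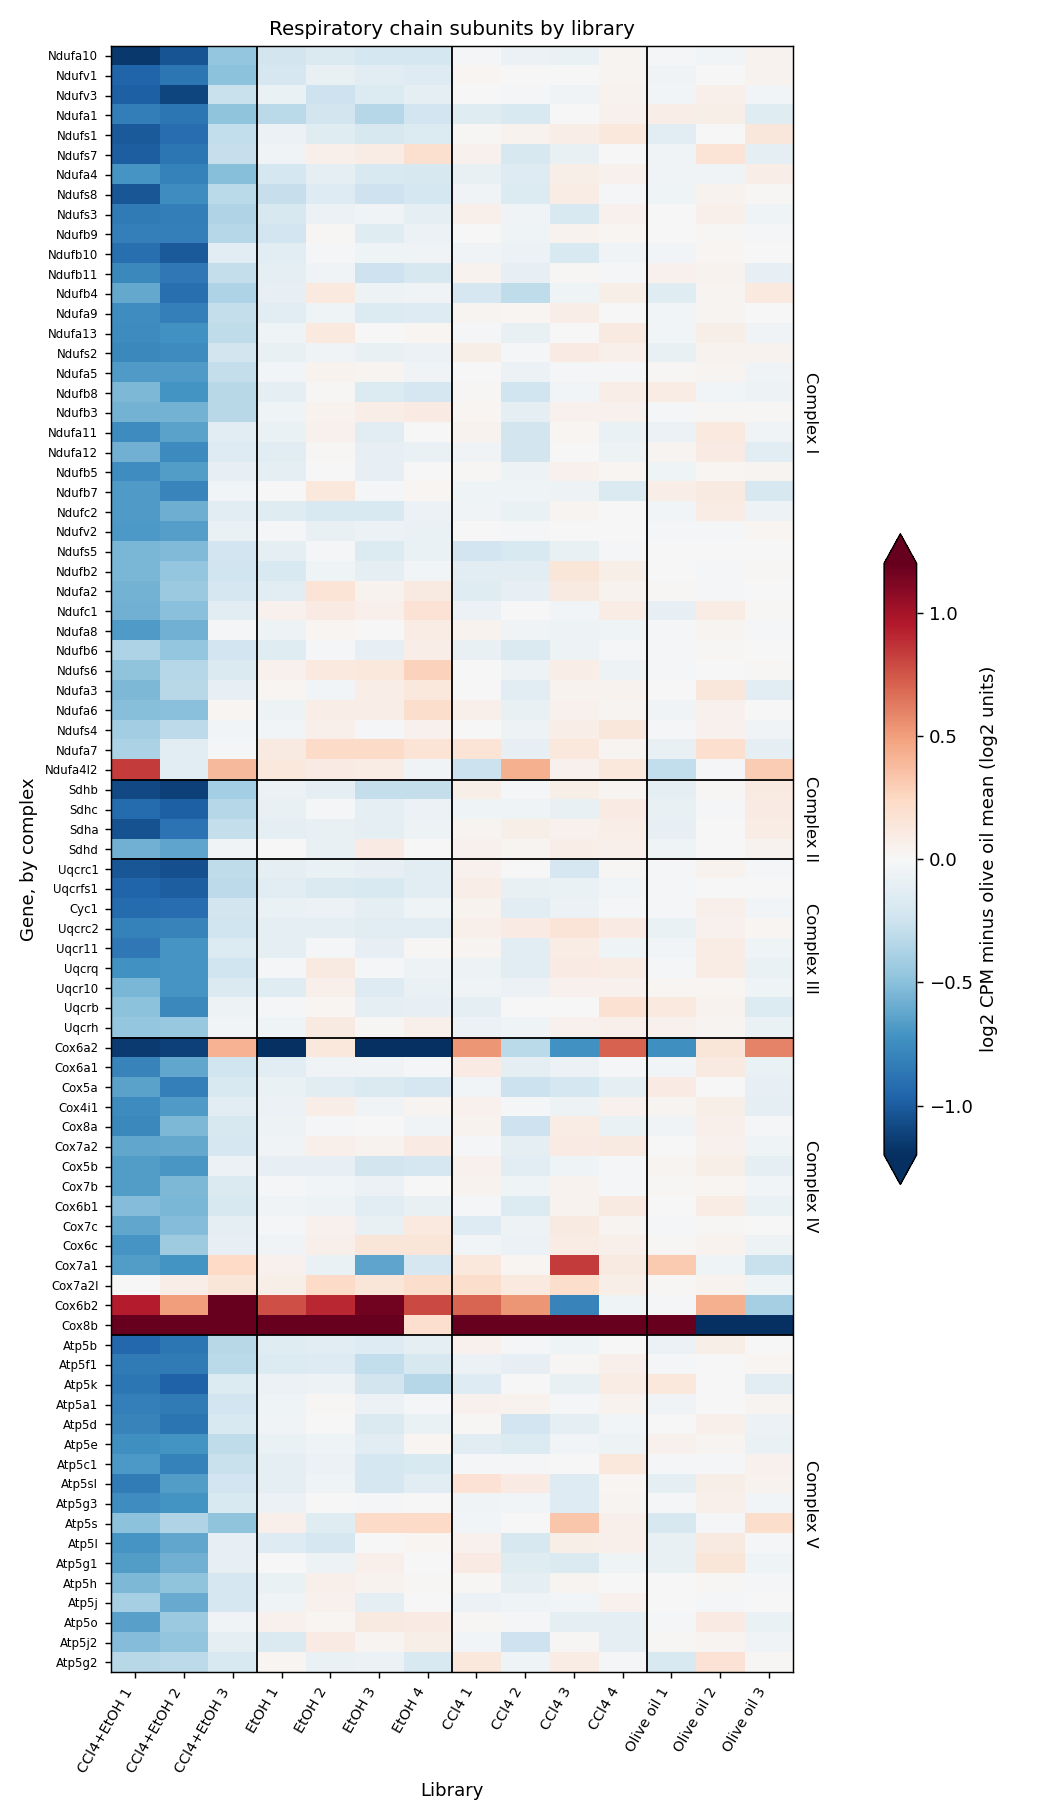
Heat map of 82 subunits (rows, by complex, sorted by their change) in 14 libraries (columns); colour is the log2 CPM minus the mean of the olive oil libraries, and the scale ends at 1.2 log2 units in either direction. CCl4+EtOH libraries 1 and 2 are blue in nearly every row and library 3 is paler, and Cox6b2 and Cox8b stand out in red.

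The fall was uneven between the CCl4+EtOH mice. Mean log2 CPM over all members had an SD of 0.30 in that group, against 0.04 in EtOH, 0.05 in CCl4 and 0.03 in olive oil kidneys. The SEs and p-values of single genes rest on a spread that the 4 groups share, so they can understate the spread among CCl4+EtOH kidneys. Over all members, the median log2 difference from the olive oil mean came to -0.69, -0.70 and -0.20 for replicates 1, 2 and 3 of CCl4+EtOH, -0.08, -0.02, -0.09 and -0.04 in EtOH replicates 1 to 4, 0.01, -0.07, 0.01 and 0.03 in CCl4 replicates 1 to 4, and -0.02, 0.04 and -0.03 in olive oil replicates 1 to 3. CCl4+EtOH replicates 1 and 2 were alike and replicate 3 was nearer to olive oil, yet still lower than every library of the other groups. This order held in each complex. For complex II the 3 CCl4+EtOH libraries stood at -0.98, -0.93 and -0.31, and the lowest library of the other groups at -0.10. For complex IV, where replicate 3 was nearest to the rest, they stood at -0.67, -0.55 and -0.12, and the lowest library of the other groups at -0.08. The 2 CCl4 mice with 4 added weeks and no ethanol, replicates 3 and 4 of that group, stood at 0.01 and 0.03 over all members. Without CCl4+EtOH replicate 3 the median change over the members was -0.71, and without replicate 1 or replicate 2 it was -0.40.

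Other transcripts moved with these libraries. The summed level of 6 proximal tubule markers was 6249 to 15359 CPM in CCl4+EtOH kidneys, 20565 to 25268 CPM in EtOH kidneys, 33455 to 44874 CPM in CCl4 kidneys and 37428 to 44476 CPM in olive oil kidneys, and 4 of the 6 fell in CCl4+EtOH against olive oil kidneys. Kap, an androgen-regulated kidney transcript among them, had 4873, 1969 and 3269.7 CPM in CCl4+EtOH kidneys and 26178, 25620.0 and 31039.6 CPM in olive oil kidneys. The other 5 markers (Slc34a1, Lrp2, Slc5a2, Slc22a6 and Aqp1) summed to 4322, 4280.2 and 12089.6 CPM in CCl4+EtOH replicates 1, 2 and 3, and to between 11249.8 and 14434 CPM in the 11 libraries of the other groups. Replicates 1 and 2 were therefore below every other library, and replicate 3 was within the range of the other groups. Macrophage markers (6 of 7 symbols in the file, 5 of 6 called higher) summed to 351 to 503 CPM in CCl4+EtOH kidneys, 134 to 187 CPM in EtOH kidneys, 141 to 280.5 CPM in CCl4 kidneys and 173 to 241 CPM in olive oil kidneys. Markers of other tubule segments were also lower in CCl4+EtOH replicates 1 and 2. The loop of Henle markers Umod and Slc12a1 summed to 4295, 4776 and 5840.4 CPM in CCl4+EtOH replicates 1, 2 and 3 and to between 5316 and 7929 CPM in the other groups, and 1 of them, Slc12a1, fell. The distal and collecting duct markers Slc12a3 and Aqp2 summed to 762, 1218 and 1633 CPM in CCl4+EtOH replicates 1, 2 and 3 and to between 1536 and 1917.7 CPM in the other groups, and 0 of the 2 passed the test in edgeR. The part of these shifts in the fall of the respiratory chain transcripts was not tested.

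**Figure D2:**
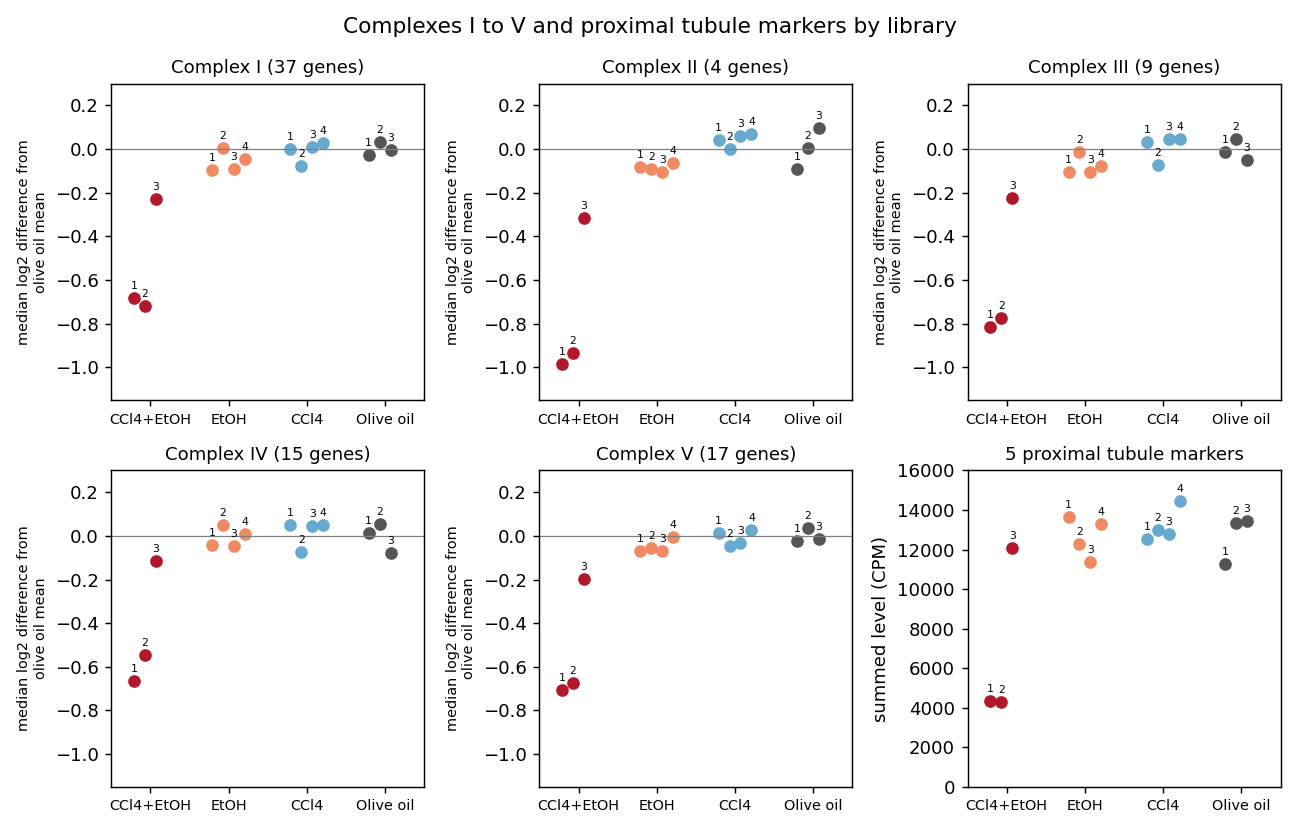
Median log2 difference from the olive oil mean over the members of each complex, and the summed CPM of 5 proximal tubule markers without Kap, with 1 point for each library (numbered by replicate) and groups on the horizontal axis. In all 5 complexes CCl4+EtOH libraries 1 and 2 are lowest and library 3 lies between them and the other groups. The 5 tubule markers of library 3, at 12089.6 CPM, lie among those of the other groups. With Kap, which is not drawn, its markers sum to 15359 CPM, and those of the other groups to at least 20564.5 CPM.

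Complex I is built from core subunits, which carry out electron transfer, and accessory subunits around them. All 7 core subunits encoded in the nucleus fell, with a median log2 change of -0.67, and 25 of 28 accessory subunits fell, with a median of -0.48. The difference between core and accessory subunits was not tested. Ndufv1, the core subunit that binds NADH and FMN, had 194, 208 and 268 CPM in CCl4+EtOH kidneys, against 366, 379 and 389 CPM in olive oil kidneys. Every CCl4+EtOH library was below every olive oil library, and the log2 change was -0.76 ± 0.11 (SE; edgeR adjusted p = 0.000348). Among the accessory subunits Ndufa10 had 124, 135 and 199.99 CPM in CCl4+EtOH kidneys, against 273.8, 270.2 and 285 CPM in olive oil kidneys. It had the largest fall of all members, -0.85 ± 0.14 (adjusted p = 0.000637). Ndufa1, a small membrane-arm subunit, had 65.6, 63.9 and 83.5 CPM in CCl4+EtOH kidneys, against 123, 123 and 105 CPM in olive oil kidneys (log2 change -0.72 ± 0.11, adjusted p = 0.000409). Its EtOH libraries, at 92.2 to 100.2 CPM, lay below the olive oil libraries too, although that difference did not pass the test (log2 -0.28 ± 0.10, adjusted p = 0.293).

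Ndufa4, which per kilobase of transcript has the highest level of the genes with an Nduf symbol, had 266, 248.7 and 307 CPM in CCl4+EtOH kidneys, against 425, 425 and 461 CPM in olive oil kidneys, and fell by 0.67 on the log2 scale (SE 0.10, adjusted p = 0.00045). Its paralog Ndufa4l2 had 4.81, 2.42 and 3.497 CPM in CCl4+EtOH kidneys and 2.17, 2.65 and 3.31 CPM in olive oil kidneys, with overlapping libraries (log2 0.40 ± 0.26, adjusted p = 0.244). As a share of the counts of the pair, Ndufa4l2 made up 1.29% ± 0.43 in CCl4+EtOH kidneys (SD, n = 3) and 0.61% ± 0.10 in olive oil kidneys (n = 3). The other complex I members that did not pass the test were Ndufa6, Ndufs4 and Ndufa7. Ndufs4, a subunit whose loss causes Leigh-like disease in mice, had 78.6, 84.5 and 103 CPM in CCl4+EtOH kidneys, against 104, 109 and 102 CPM in olive oil kidneys (log2 -0.25 ± 0.09, adjusted p = 0.0524). In it, CCl4+EtOH replicates 1 and 2 were below olive oil and replicate 3 was among the olive oil libraries. Ndufa6 gave a log2 value of -0.31 ± 0.12 (adjusted p = 0.0697) and Ndufa7 one of -0.18 ± 0.11 (adjusted p = 0.217). Ndufs4 and Ndufa6 were called lower with DESeq2, with limma-voom and without CCl4+EtOH replicate 3.

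Complex II, succinate dehydrogenase, is also an enzyme of the citric acid cycle and has no subunit encoded in mitochondrial DNA. All 4 of its subunits fell. Sdhb, the iron-sulfur subunit, had 194, 189 and 309 CPM in CCl4+EtOH kidneys, against 379, 414 and 442 CPM in olive oil kidneys, a log2 change of -0.83 ± 0.16 (edgeR adjusted p = 0.00153). The flavoprotein Sdha, which oxidises succinate, had 583, 649 and 983 CPM in CCl4+EtOH kidneys and 1124, 1203 and 1279 CPM in olive oil kidneys, with no overlap (log2 -0.70 ± 0.16, adjusted p = 0.00428). The Sdha call held in all 14 fits without 1 library and was lost in 1 of 8 other alternatives. Of the membrane anchors, Sdhc had 189.8, 183 and 285 CPM in CCl4+EtOH kidneys, against 339, 358 and 386 CPM in olive oil kidneys (log2 -0.72 ± 0.14, adjusted p = 0.00186). Sdhd, the other anchor, had 212, 205 and 309 CPM in CCl4+EtOH kidneys and 307, 318 and 327 CPM in olive oil kidneys. Its replicate 3 lay among the olive oil libraries, and its change was the smallest of the complex, -0.39 ± 0.13 (adjusted p = 0.0311). The Sdhd call was lost without CCl4+EtOH replicate 1 or 2 or any 1 olive oil library (5 of 14 such fits) and with only the groups compared, with log2 values from -0.61 to -0.27.

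In complex III all 9 members fell. The electron-carrying subunits, cytochrome c1 (Cyc1) and the Rieske iron-sulfur protein (Uqcrfs1), changed by -0.65 and -0.72 on the log2 scale, the core proteins Uqcrc1 and Uqcrc2 by -0.75 and -0.59, and the 5 small subunits by a median of -0.46. Uqcrc1 had 244, 239.7 and 404 CPM in CCl4+EtOH kidneys, against 492, 514 and 489.6 CPM in olive oil kidneys, and the groups did not overlap (log2 -0.75 ± 0.16, edgeR adjusted p = 0.0032). Its call held in all 14 fits without 1 library and was lost in 1 of 8 other alternatives. Uqcrfs1 had 192, 189 and 302 CPM in CCl4+EtOH kidneys, against 372, 376 and 376 CPM in olive oil kidneys, also without overlap (log2 -0.72 ± 0.14, adjusted p = 0.00215). The hinge protein Uqcrh changed least, with 175, 176 and 237 CPM in CCl4+EtOH kidneys and 250.4, 248 and 228 CPM in olive oil kidneys. Its replicate 3 lay among the olive oil libraries, and its adjusted p was 0.047 (log2 -0.30 ± 0.11). This call was lost in 13 of 14 fits without 1 library, all but the one without CCl4+EtOH replicate 3, and in 5 of 8 other alternatives, with log2 values from -0.47 to -0.22.

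Complex IV, cytochrome c oxidase, has regulatory subunits with paralogs that differ between tissues. The 10 widely expressed subunits all fell, with a median of -0.46 and a narrow range of -0.54 to -0.39. Cox4i1, the main form of the subunit that ATP regulates, had 374, 395 and 580.3 CPM in CCl4+EtOH kidneys, against 647, 665 and 587 CPM in olive oil kidneys (log2 -0.49 ± 0.14, edgeR adjusted p = 0.0163). Cox6a1, the form found in most tissues, had 184, 208 and 272 CPM in CCl4+EtOH kidneys, against 314, 346 and 303 CPM in olive oil kidneys (log2 -0.54 ± 0.13, adjusted p = 0.00508). In both genes all 3 CCl4+EtOH libraries were below all 3 olive oil libraries. The Cox4i1 call was lost without CCl4+EtOH replicate 1 or 2 or olive oil replicate 2, and in 1 of 8 other alternatives. Cox7a2 (log2 -0.47 ± 0.11), Cox7b (-0.45 ± 0.11), Cox8a (-0.48 ± 0.13) and Cox6b1 (-0.41 ± 0.11) fell too, with adjusted p-values of 0.00557, 0.00566, 0.00896 and 0.00964. These calls and that of Cox6a1 each held in all 14 fits without 1 library, and each was lost in 1 of 8 other alternatives. Cox7a2l, named above for the joining of complexes, did not pass the test, with 83.6, 87.9 and 92.0 CPM in CCl4+EtOH kidneys, against 83.8, 85.4 and 79.9 CPM in olive oil kidneys (log2 0.08 ± 0.07, adjusted p = 0.407).

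Some paralogs known from other tissues were present at a low level. Cox6b2, known as the testis form of Cox6b1, had 8.18, 6.01 and 10.1 CPM in CCl4+EtOH kidneys, 7.24, 7.96, 9.47 and 7.35 CPM in EtOH kidneys, 6.89, 6.12, 2.42 and 4.07 CPM in CCl4 kidneys and 4.17, 5.70 and 3.20 CPM in olive oil kidneys. All CCl4+EtOH and EtOH libraries were above all olive oil libraries. It was called higher in CCl4+EtOH than in olive oil kidneys (log2 0.89 ± 0.32, edgeR adjusted p = 0.0449) and not in EtOH kidneys (log2 0.87 ± 0.31, adjusted p = 0.293). Between CCl4+EtOH and EtOH kidneys it differed by 0.01 ± 0.29 (adjusted p = 0.978). Of the counts of Cox6b1 and Cox6b2 together, Cox6b2 held 3.60%, 2.72% and 3.54% in CCl4+EtOH kidneys and 1.31%, 1.68% and 1.07% in olive oil kidneys. The call was not kept throughout: 9 of 14 fits without 1 library (those without CCl4+EtOH replicate 1 or 3, any 1 EtOH library, CCl4 replicate 4, or olive oil replicate 1 or 3) and 3 of 8 other alternatives (limma-voom, no filter, and only the groups compared) gave adjusted p-values above 0.05.

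Cox8b, Cox7a1 and Cox6a2 are the forms known from muscle and, for Cox8b and Cox7a1, brown fat. Cox8b had 3.22, 1.94 and 10.3 CPM in CCl4+EtOH kidneys, 9.82, 3.41, 1.52 and 0.380 CPM in EtOH kidneys, 0.985, 1.13, 17.1 and 2.01 CPM in CCl4 kidneys and 2.87, 0.0883 and 0.108 CPM in olive oil kidneys. The groups overlapped. The brown fat markers Ucp1, Cidea and Elovl3 summed to 17.9, 12.5 and 122 CPM in CCl4+EtOH kidneys, 149, 24.8, 9.52 and 0.25 CPM in EtOH kidneys, 24.1, 20.3, 169.9 and 20.0 CPM in CCl4 kidneys and 33.2, 0.35 and 0.22 CPM in olive oil kidneys. CCl4 replicate 3, CCl4+EtOH replicate 3 and EtOH replicate 1 were thus the 3 highest libraries of both, and olive oil replicates 2 and 3 and EtOH replicate 4 the 3 lowest. Summed skeletal muscle markers were between 1.18 and 3.18 CPM in every library. The fitted log2 value of Cox8b, 2.39 ± 1.45, had an adjusted p of 0.22. Cox7a1 was highest in CCl4 replicate 3 too (15.9 CPM, against 7.42 to 11.1 CPM in olive oil kidneys), and Cox6a2 reached at most 1.64 CPM. Neither passed the test in CCl4+EtOH against olive oil kidneys (log2 -0.33 ± 0.29 and -0.54 ± 0.61, adjusted p = 0.386 and 0.515), although Cox7a1 was called lower without CCl4+EtOH replicate 3.

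**Figure D3:**
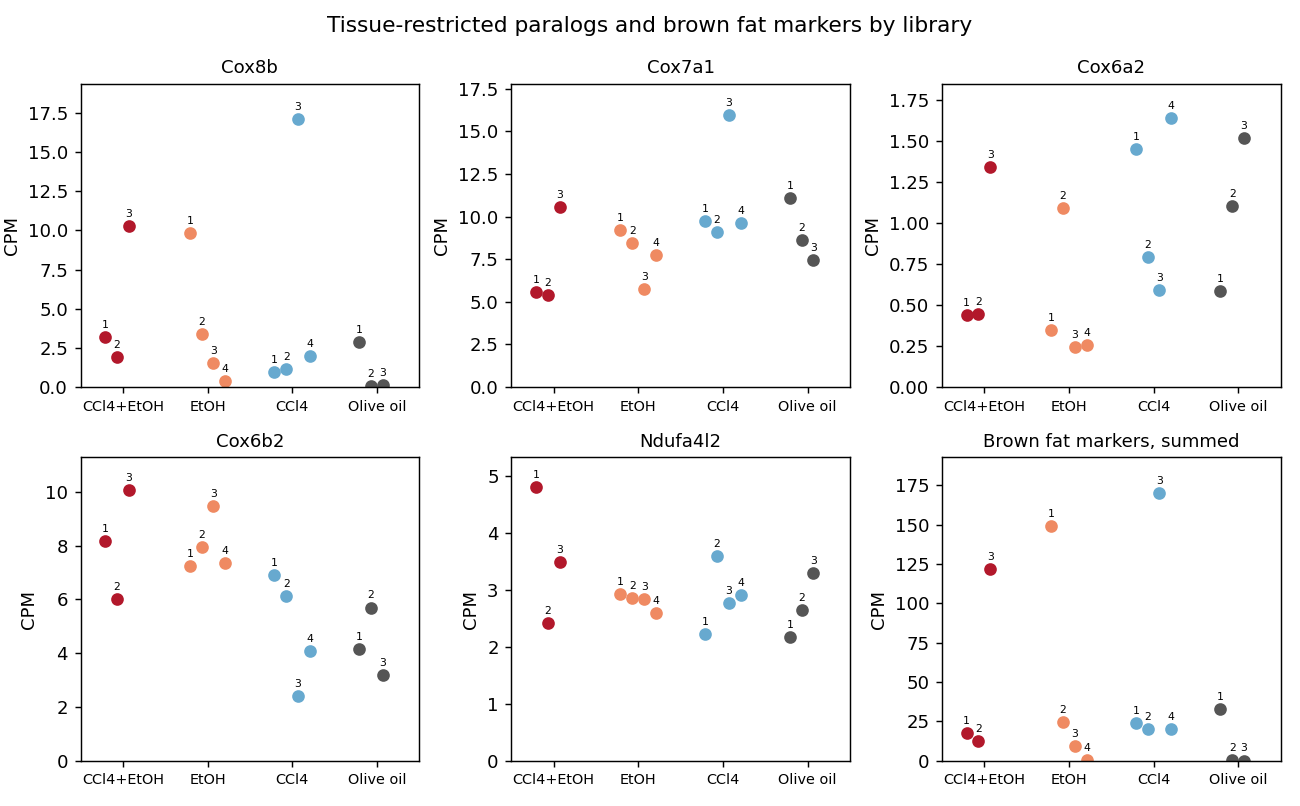
CPM of 5 paralogs and summed CPM of the brown fat markers Ucp1, Cidea and Elovl3, with 1 point for each library, numbered by replicate, and groups on the horizontal axis. Cox8b and the brown fat markers are highest in the same 3 libraries (CCl4 replicate 3, CCl4+EtOH replicate 3 and EtOH replicate 1), and Cox6b2 is higher in all CCl4+EtOH and EtOH libraries than in all olive oil libraries.

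Complex V consists of the F1 part, which makes ATP, and a membrane part with stalks, which the proton flow drives. All 17 members fell, Atp5s and Atp5sl among them. The median log2 change was -0.59 over the 5 F1 subunits and -0.41 over the 10 subunits of the membrane part and stalks, and the difference between these parts was not tested. Atp5b, the catalytic beta subunit and the member with the highest level per kilobase, had 1828, 1924 and 2787 CPM in CCl4+EtOH kidneys, against 3343, 3691 and 3495 CPM in olive oil kidneys, without overlap (log2 -0.69 ± 0.16, edgeR adjusted p = 0.00428). The Atp5b call held in all 14 fits without 1 library and was lost in 1 of 8 other alternatives. Atp5f1, a stalk subunit, had 214, 214 and 308 CPM in CCl4+EtOH kidneys, against 378, 387 and 389.8 CPM in olive oil kidneys (log2 -0.65 ± 0.13, adjusted p = 0.00184). Atp5e, the smallest F1 subunit, had 90.2, 91.4 and 122 CPM in CCl4+EtOH kidneys, against 155, 154 and 142 CPM in olive oil kidneys (log2 -0.57 ± 0.11, adjusted p = 0.00129). In both, no CCl4+EtOH library reached the olive oil range. Atp5g1, Atp5g2 and Atp5g3 encode the same mature ring subunit behind different import signals. Atp5g3 held 82.5% ± 0.97 of the counts of the 3 genes in CCl4+EtOH kidneys (SD, n = 3) and 84.1% ± 0.89 in olive oil kidneys (n = 3), and changed by -0.53 ± 0.13 (adjusted p = 0.00845). Atp5g1 changed by -0.43 ± 0.13 (adjusted p = 0.0188), and Atp5g2 changed least of the complex, -0.28 ± 0.09 (adjusted p = 0.0309). The Atp5g1 and Atp5g2 calls were lost without CCl4+EtOH replicate 1 or 2 or olive oil replicate 2, and that of Atp5g2 also without olive oil replicate 3. Of 8 other alternatives, 1 lost the call of Atp5g1, 1 that of Atp5g3 and 2 that of Atp5g2, upper-quartile factors among the latter. Near-identical processed copies of such genes exist in the mouse genome, and how the authors' counting shared reads among copies, and among overlapping genes, was not given, so single-gene values are uncertain to that extent.

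**Figure D4:**
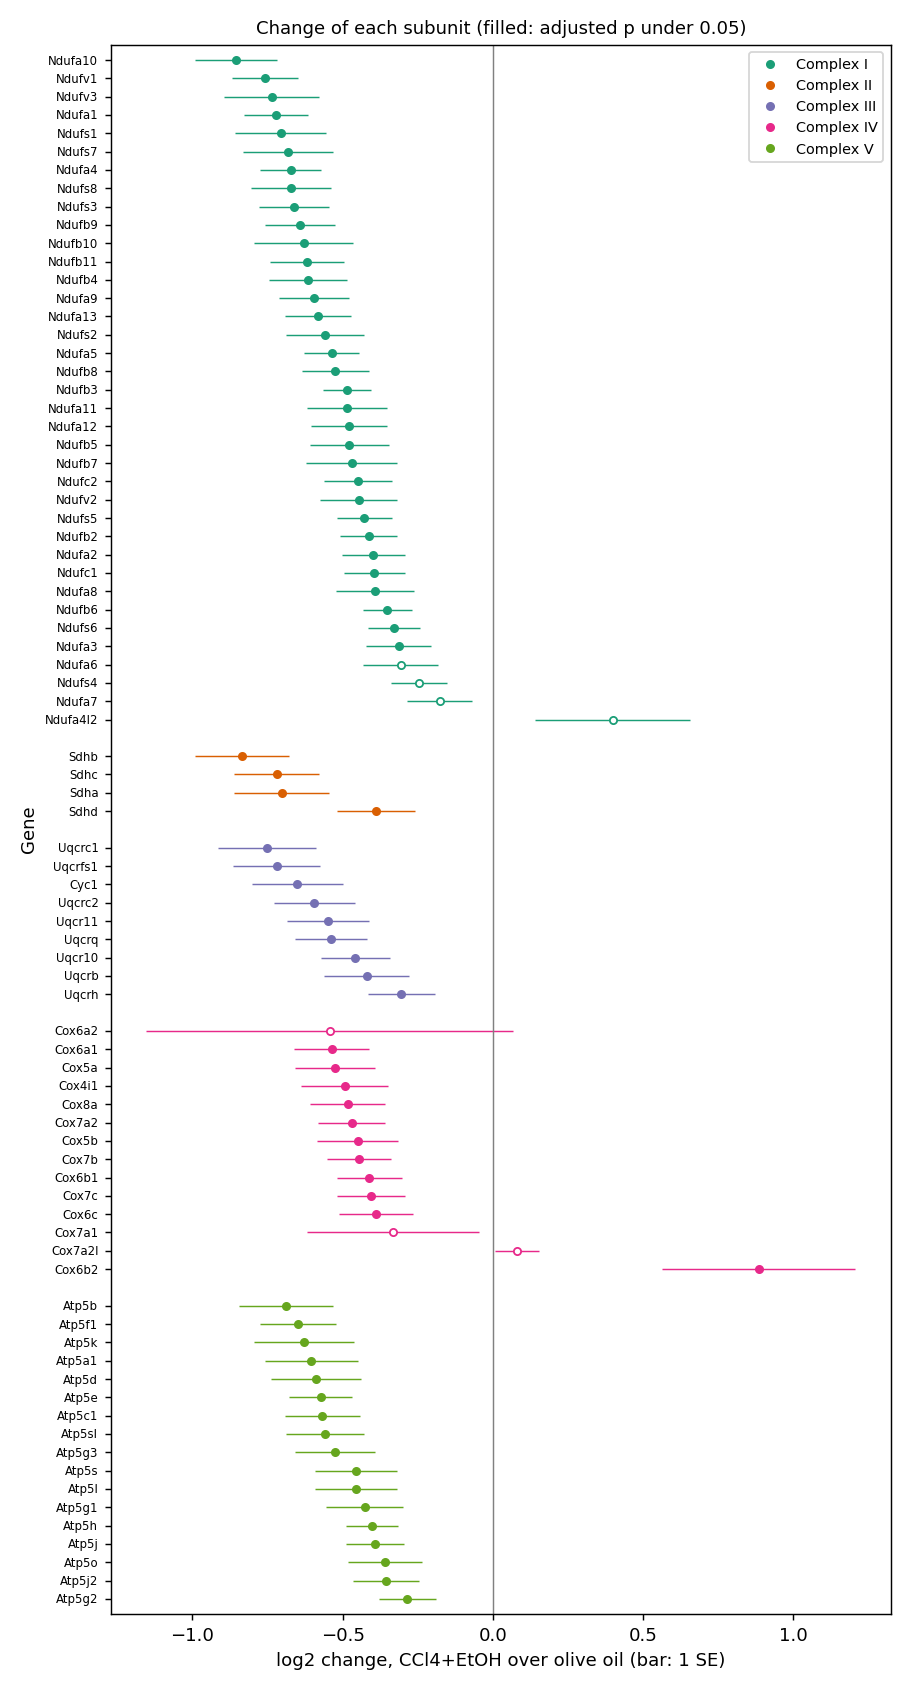
Log2 change of each subunit in CCl4+EtOH over olive oil kidneys with 1 SE, by complex; filled points have an adjusted p under 0.05 and Cox8b (2.39 ± 1.45, open) is off the scale and not drawn. Nearly all filled points lie between -0.85 and -0.28, and Cox6b2 is the only filled point above 0.

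Compared per kilobase of transcript (78 members with a principal GENCODE transcript), so that genes can be set side by side, single genes of the ATP synthase had the highest levels, although the median over complex V was below those over complexes II and III. Atp5b reached 1138 CPM per kilobase in CCl4+EtOH kidneys and 1832 in olive oil kidneys. Next in olive oil kidneys were Atp5a1 (660.5 in CCl4+EtOH and 1004 in olive oil kidneys), Ndufa4 (606 and 966), Atp5g3 (609 and 876) and Cox4i1 (604 and 849.9). The median over complex II was 199 CPM per kilobase in CCl4+EtOH kidneys, 287 in EtOH, 318 in CCl4 and 309 in olive oil kidneys. For complex I these medians were 110.3, 155, 159 and 159, for complex III 179, 280.5, 295 and 302, for complex IV 151, 202, 206 and 206, and for complex V 171, 235, 257 and 264. In each complex the median of CCl4+EtOH kidneys was below those of the other 3 groups. The lowest members per length were Cox6a2, Cox8b and Ndufa4l2, at 1.57, 2.84 and 2.90 CPM per kilobase in olive oil kidneys.

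CCl4+EtOH kidneys were also set against each single exposure. Against EtOH kidneys 74 members fell and 0 rose in edgeR (16.2% and 18.1% of all tested genes), with a median log2 change of -0.45. Against CCl4 kidneys 72 fell and 0 rose (16.2% and 18.7%), with a median of -0.48. These comparisons share the CCl4+EtOH libraries with the one against olive oil. Ndufb3, an accessory subunit of complex I, had 41.7, 41.6 and 48.8 CPM in CCl4+EtOH kidneys, 59.3, 63.5, 65.1 and 66.1 CPM in EtOH kidneys and 62.5, 57.0, 64.0 and 63.8 CPM in CCl4 kidneys. It was lower in every CCl4+EtOH library, by log2 -0.53 ± 0.07 against EtOH (edgeR adjusted p = 0.000399) and -0.49 ± 0.07 against CCl4 kidneys (adjusted p = 0.000447). Ndufv1, at 328, 355, 344 and 340.3 CPM in EtOH and 384, 376, 377 and 385 CPM in CCl4 kidneys, was likewise above its CCl4+EtOH libraries throughout, with log2 changes of -0.61 ± 0.10 and -0.77 ± 0.10 (adjusted p = 0.000836 and 0.000224). Ndufa7, not called against olive oil, fell against EtOH kidneys (-0.35 ± 0.10, adjusted p = 0.0164), where it had 57.4, 68.2 and 74.2 CPM in CCl4+EtOH and 80.6, 87.8, 87.5 and 83.9 CPM in EtOH kidneys. Against EtOH kidneys the number of members called was 33 without CCl4+EtOH replicate 1, 38 without replicate 2, and 2 when the 3 EtOH libraries with adrenal transcripts were left out, which leaves 1 EtOH library and a median of -0.49. Over all genes these fits called 3258, 3195 and 335, against 5514 with all libraries. Against CCl4 kidneys 44 and 46 members were called without CCl4+EtOH replicates 1 and 2. These fits called 3480 and 3582 genes in all, against 5610 with all libraries.

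In kidneys after either exposure alone the medians of the subunits lay near the olive oil level. In EtOH against olive oil kidneys 0 members were called with edgeR (0.0869% of all tested genes fell and 0.0807% rose), 3 had an unadjusted p under 0.05, and the median log2 value was -0.06. In CCl4 against olive oil kidneys 0 were called (0% of all tested genes in either direction), 1 had an unadjusted p under 0.05, and the median was -0.01. EtOH against CCl4 kidneys gave 0 calls (0.248% fell and 0.298% rose), 2 unadjusted p-values under 0.05 and a median of -0.04. Within the CCl4 group, mice with 10 weeks of dosing against those with 6 weeks (2 each) gave 0 calls (0% in either direction), 2 unadjusted p-values under 0.05 and a median of 0.05. DESeq2 and limma-voom also called 0 members in each of these 4 comparisons. The members with the smallest p in EtOH against olive oil kidneys were Cox6b2, given above, and Ndufa1. In CCl4 against olive oil kidneys it was Cox7a2l, with 96.0, 90.2, 96.3 and 87.1 CPM in CCl4 and 83.8, 85.4 and 79.9 CPM in olive oil kidneys (log2 0.15 ± 0.07, adjusted p = 1). In the CCl4 schedules it was again Cox6b2, with 2.42 and 4.07 CPM after 10 weeks and 6.89 and 6.12 CPM after 6 weeks (log2 -1.003 ± 0.32, adjusted p = 0.602). Sdha, at 1109 to 1149.8 CPM in EtOH, 1228 to 1266 CPM in CCl4 and 1124 to 1279 CPM in olive oil kidneys, overlapped with olive oil in both other groups, while EtOH libraries were below CCl4 libraries.

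**Figure D5:**
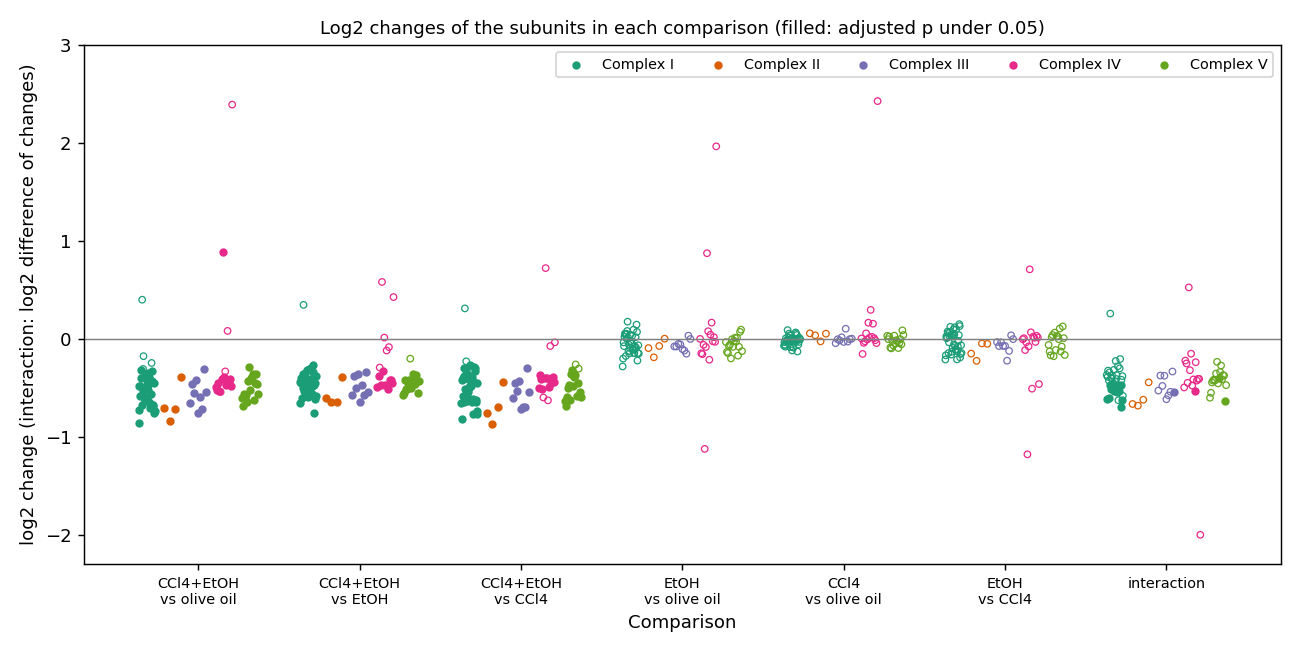
Log2 changes of the 82 subunits in 6 comparisons and log2 differences in the interaction, with 1 point for each gene, coloured by complex and filled where the adjusted p is under 0.05. Points of the 3 comparisons with CCl4+EtOH kidneys have medians of -0.49, -0.45 and -0.48 and are mostly filled, whereas the 3 comparisons among the other groups have medians of -0.06, -0.01 and -0.04 with no filled point.

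Whether the change with CCl4 differed between mice with and without ethanol was tested as an interaction, the difference of CCl4+EtOH and EtOH kidneys minus that of CCl4 and olive oil kidneys. In the second difference 2 of the CCl4 mice had 4 further weeks of a reduced dose, and the olive oil mice had no further weeks. Whether CCl4 went on beside ethanol is not clear, so the 2 differences may not be matched in CCl4 dosing. The interaction was negative for 80 of 82 members, with a median of -0.43 log2 units against 0.002 over all tested genes, and 15 members passed the threshold, all downward (3.63% of all tested genes passed downward and 5.49% upward). Of these 11 were in complex I, 1 in complex III, 1 in complex IV and 2 in complex V. Ndufb3 had the smallest p, with a difference of -0.53 ± 0.10 (edgeR adjusted p = 0.0139), followed by Ndufv1 at -0.62 ± 0.14 (0.022), Ndufa5 at -0.51 ± 0.12 (0.0241) and Ndufa13 at -0.61 ± 0.15 (0.0243). Complex II had the largest median, -0.64, and 0 calls in edgeR, although all 4 of its members had an unadjusted p under 0.05 and Sdhc an adjusted p of 0.0519. The count moved with the number of genes called in all, which was 1468 in this fit: DESeq2 called 40 members and 2523 genes, and limma-voom 73 members and 4810 genes. Leaving out CCl4+EtOH replicate 3 gave 76 members and 4881 genes, and leaving out any other single library gave 1 to 6 members and 292 to 1197 genes. Without the 3 EtOH libraries with adrenal transcripts, which leaves 1 EtOH library, edgeR called 0 members and 3 genes.

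Genes around the chain were counted in the same comparison of CCl4+EtOH with olive oil kidneys. Of the factors that assemble the complexes, 9 of 13 for complex I fell, 1 of 3 for complex II, 1 of 5 for complex III, 8 of 20 for complex IV and 2 of 4 for complex V (with its inhibitor), and 0 rose, beside the 16.6% of all tested genes that fell and 18.9% that rose. For complex III the count of 1 of 5 is near that share, and the complex II list holds only 3 genes. Median log2 changes of these lists were -0.35, -0.29, -0.20, -0.29 and -0.35. Acad9 and Ecsit, which help to build complex I, changed by -0.96 ± 0.13 and -0.92 ± 0.11 (edgeR adjusted p = 0.000244 and 0.000144). Sdhaf1, the factor for the Sdhb iron-sulfur clusters, changed by -0.72 ± 0.11, Cox15, an enzyme of heme a synthesis, by -0.63 ± 0.09, Taco1, a translational activator of a mitochondrially encoded subunit, by -0.51 ± 0.09, and the ATP synthase factor Tmem70 by -0.51 ± 0.13. Uqcc1, for complex III, changed by -0.41 ± 0.13 and Atpaf1, for the F1 part, by -0.50 ± 0.13.

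The lists that follow stand beside the 16.6% of all tested genes that fell and 18.9% that rose. Of 18 genes of the electron carriers and ubiquinone synthesis 11 fell and 0 rose (median -0.43). Pdss1, which makes the ubiquinone side chain, had 12.04, 10.9 and 13.4 CPM in CCl4+EtOH and 26.0, 21.6 and 24.6 CPM in olive oil kidneys (log2 -0.99 ± 0.13, edgeR adjusted p = 0.000202), and Etfa, of the electron transfer flavoprotein, changed by -0.87 ± 0.15. Of 17 genes of the citric acid cycle and pyruvate dehydrogenase 16 fell and 0 rose (median -0.58), with Dlat at -0.71 ± 0.13 and Pdhx at -0.63 ± 0.10. Among 17 membrane channels and import genes 10 fell and 0 rose (median -0.31), led by the chaperone Hspd1 (-0.90 ± 0.16) and the channel Vdac1 (-0.70 ± 0.14). Regulators of mitochondrial biogenesis were mixed: 5 of 18 fell and 2 rose (median -0.23). The receptor Esrrb (-1.14 ± 0.25) and the deacetylase Sirt3 (-0.92 ± 0.20) fell, Gabpb1, a subunit of GABP, rose by 0.52 ± 0.12 (adjusted p = 0.00483), and Nrf1 rose by 0.33 ± 0.12 (adjusted p = 0.0433). Of 9 uncoupling and hypoxia-responsive genes 3 fell, among them the protease Lonp1 (-0.66 ± 0.12), and 1, Hif1a, rose by 0.28 ± 0.10 (adjusted p = 0.0398). The median of this list was 0.27. Whether the counts of these lists differ from the shares over all tested genes was not tested. For members with NRF1 letters in the promoter window the median change was -0.51 (n = 20), and for those with a window and no such letters -0.47 (n = 48). For ETS these medians were -0.48 (n = 16) and -0.48 (n = 52), and for YY1 -0.39 (n = 8) and -0.48 (n = 60). For the estrogen-related receptor they were -0.46 (n = 2) and -0.48 (n = 66), and for any motif -0.48 (n = 36) and -0.47 (n = 32). These differences were not tested.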

How the data were processed

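Kidney RNA of 14 mice was read from 1 table of counts per gene. The deposited values are whole-number counts, with mm9 and GSNAP named per the submitters' processing notes; the counter, the gene annotation and the use of strand were not given in the sources used here. Of 23893 rows, 27 carried dates in place of gene symbols and were left out (0.168% to 0.209% of a library's counts). 1 further labelled olive oil sample was not analysed here.

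Counts were fitted in R 4.3.3 with edgeR 4.0.16 (filterByExpr, TMM factors, robust quasi-likelihood F test, all 4 groups in 1 fit), and p-values were adjusted by Benjamini-Hochberg over all 16105 genes tested, with 0.05 as the threshold. Each SE of a log2 change is the size of that change divided by the square root of its F value. It therefore draws on the spread shared by all 4 groups, not on the 2 groups compared alone. The fit by CCl4 schedule tested 16442 genes. CPM values use TMM library sizes, and log2 levels a prior count of 0.5. DESeq2 1.42.0 and limma-voom (limma 3.58.1) with quality weights, other size factors, other filters, only the groups compared and each library left out were alternatives. Of the fits, only edgeR's comparison of CCl4+EtOH with olive oil kidneys was run on simulated data, with the spread of each gene taken from these data. The result of that run is not given here. Promoters came from RefSeq (GRCm38.p6) and lengths from GENCODE, for which the shortest principal transcript of a gene was used; coordinates of these and of mm9 were not mixed.

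Members and lists were chosen with earlier results of these data known, which had already shown a fall of such genes. Named are, per complex, the 3 members with the smallest p, those with the highest and the lowest change and all not called or called higher, the leading members of each other comparison, the paralog pairs and 2 genes per direction of each list around the chain. Cyc1, Uqcrc2 and Atp5a1 were added for their role, and the printed promoters were chosen, after values were seen. Mice are labelled as separate animals.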

Additional observations from a re-analysis of the deposited data

Results flagged for a closer look

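In the interaction, by edgeR's quasi-likelihood test, 15 members passed the threshold, all downward. Of all tested genes 3.63% passed downward and 5.49% upward. The count was not stable: it was 76 without CCl4+EtOH replicate 3, and 1 to 6 without any other single library. Among the named members the log2 differences were -0.62 for Ndufv1, -0.62 for Ndufa10, -0.61 for Ndufa13, -0.54 for Uqcrq, -0.53 for Cox7a2, -0.53 for Ndufb3, -0.51 for Ndufa5, -0.47 for Ndufs6, -0.47 for Ndufa4 and -0.40 for Atp5h, each with the CCl4+EtOH libraries below the EtOH libraries.

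Single libraries stood far from the rest of their group of 4 in 3 of 78 groups tested, where chance gives about 1 in 20. Cox8b reached 17.1 CPM and Cox7a1 15.95 CPM in CCl4 replicate 3, the library with the highest summed brown fat markers (169.9 CPM). Cox6a2 reached 1.09 CPM in EtOH replicate 2.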

How the results depend on the processing

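With only the groups compared in the fit, 27 members were called in CCl4+EtOH against olive oil kidneys and 30 against EtOH kidneys. Over all genes these fits called 3276 and 3390. Leaving out each library in turn gave 49 to 76 members against olive oil, 33 to 76 against EtOH and 44 to 77 against CCl4 kidneys. Calls over all genes moved too. The fits at these ends called 3904 and 7417 genes against olive oil, 3258 and 7417 against EtOH, and 3480 and 7396 against CCl4 kidneys. Without the 3 EtOH libraries with adrenal transcripts, an alternative chosen after seeing the data, 2 members were called against EtOH kidneys, with 1 EtOH library left and assumed to vary like the other groups, and 0 in the interaction. The interaction gave 9 members with upper-quartile factors, 40 with DESeq2, 73 with limma-voom, 5 with no filter, and 1 to 76 with each library left out. Over all genes the first 4 of these fits called 1518, 2523, 4810 and 1120. Fewer samples and fewer degrees of freedom are part of the fits that leave libraries or groups out; for the other settings the cause was not tested.

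The median change in CCl4+EtOH against olive oil kidneys stayed between -0.71 and -0.40 with each library left out and between -0.65 and -0.44 under the other alternatives, while the median of all genes was at most 0.07. Of 856 recomputed values of the 39 named members, 787 kept direction and side of the threshold, 61 were no longer past it, 8 came to pass it and 0 reversed. Of the 73 members that fell, 27 were shared with the fit of only the groups compared and 69 to 73 with the other tools, factors and filters. No paired analysis was possible because the labels give no numbers that groups share.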
